A study of Mus musculus with 9 samples.

Results

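Aminoacyl tRNA synthetases are the enzymes that join each amino acid to its transfer RNA, and their transcripts were followed here in mouse cytotoxic T lymphocytes (CTL) treated with 2 inhibitors of the kinase mTOR. The list held 36 genes. The array annotation held 35 of them on probe sets with 1 symbol each. Dars is not analysed here. Members whose symbol ends in 2 form the mitochondrial set (16 genes on the array) and the others the cytosolic set (19 genes), out of 18193 genes in all. Members are assigned to the sets by gene name. Among mammals, Gars and Kars make both a cytosolic and a mitochondrial enzyme from 1 gene, and they are counted with the cytosolic set.

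The groups were rapamycin at 20 nM, KU-0063794 at 1 uM, and DMSO, the solvent, with 3 arrays in each. All 9 cultures came from spleens of wild-type mice of the P14-TCR strain, whose transgenic T cell receptor recognises the viral peptide gp33-41. That peptide activated the CD8 T cells, with the cytokines IL-2 and IL-12, for 48 h. The washed cells stayed in culture for 96 h more, to day 6, and received inhibitor or DMSO during the last 48 h. Each replicate number is 1 spleen, and every spleen gave all 3 groups, so the arrays are paired across groups. Total RNA was labelled with biotin and hybridised to 1 Affymetrix array per culture.

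Synthetases fall into class I and class II, which have unrelated catalytic folds. In animal cells several cytosolic synthetases sit together in a multisynthetase complex held by the scaffold proteins Aimp1, Aimp2 and Eef1e1, while the mitochondrial enzymes are separate nuclear genes that serve translation inside the organelle. Many cytosolic synthetase genes are known targets of ATF4, a transcription factor of the amino acid response whose translation mTOR complex 1 promotes. Rapamycin binds FKBP12 and inhibits mTOR complex 1 directly, whereas KU-0063794 competes with ATP at the kinase site that both mTOR complexes share. The contrasts ask what each inhibitor did to synthetase transcripts, and whether they differed.

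The arrays were alike in overall signal, with medians between 0.47 and 0.53 log2 and correlations between arrays of 0.987 to 0.996. Signals of 29 genes restricted to other tissues set a background level of 1.36 log2, their 95th percentile. All 10 markers measured of T cells in general or of CD8 T cells (Cd8a and Cd8b1) lay above it on every array. Their summed log2 signal was 73.1 to 74.1 with rapamycin, 72.8 to 73.5 with KU-0063794 and 72.2 to 74.3 with DMSO. One of them, Lat, an adaptor of T cell receptor signalling, was called lower with KU-0063794 (-0.39, limma adjusted p = 0.0229). With the spleen as a block Lat was lower and Cd2 higher with both inhibitors, Cd8b1 higher with rapamycin and Cd247 lower with KU-0063794. Above background on any array were at most 2 of 7 B cell, 1 of 4 CD4 T cell, 1 of 10 myeloid, 1 of 3 NK cell and 1 of 6 erythroid or stromal markers. The B cell marker Ighm, the immunoglobulin heavy chain, read high throughout, at 8.31 ± 1.03 log2 with rapamycin, 8.30 ± 0.88 with KU-0063794 and 8.03 ± 1.17 with DMSO (SD, n = 3 each). Cd68 was the one marker of another cell type that was called, lower with rapamycin at 0.28 log2 against 0.78 with DMSO, both under background. The summed signal of the 10 myeloid markers was 3.52 to 4.43 log2 with rapamycin, 4.28 to 5.40 with KU-0063794 and 4.19 to 5.13 with DMSO. The actin control, read as the 3' minus the 5' probe set, was 0.62 to 0.72 log2 with rapamycin, 0.65 to 0.70 with KU-0063794 and 0.49 to 0.65 with DMSO, and the part of these markers and controls in the differences below was not tested. In bulk RNA, fewer cells of a type and less RNA per cell cannot be told apart.

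Every one of the 19 cytosolic synthetases was above background on all 9 arrays, against 12 of the 16 mitochondrial ones. Mean signals over the 9 arrays ran from 3.84 log2 for Wars, which charges tryptophan, to 7.45 log2 for Gars, which charges glycine, in the cytosolic set. In the mitochondrial set they ran from 0.26 log2 for Mars2, the methionine enzyme, to 4.56 log2 for Rars2, the arginine enzyme. Probe sets differ in how strongly they bind, so these readings are not amounts of transcript that can be ranked. Mars2 missed the filter on dim genes and was not tested, while Ears2, Sars2 and Wars2 were tested but read above background on only 1 or 2 of the 9 arrays.

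Stretches of the members' promoter windows are shown because many cytosolic synthetase genes are ATF4 targets, and ATF4 is known to bind, with C/EBP partners, a composite element that matches TTNCATCA. RefSeq windows of GRCm38.p6, from 250 bases before each start to 50 after, were found for 27 of the 36 listed members, 13 cytosolic and 14 mitochondrial. Cars, Hars, Lars, Nars, Rars, Vars, Wars, Hars2 and Pars2 were not matched. The letters TTNCATCA, or TGATGNAA on the other strand, occurred in a window of 5 of the 13 cytosolic and 0 of the 14 mitochondrial genes, against 4.51% of all 27025 genes with a window (3.97% of 32851 windows). For each of the 5 genes a match is printed 5′ to 3′ on the strand of its gene, with the 8 matching bases in capitals and its distance from the RefSeq start, and a match is a description of letters, not a shown binding site.
Aars, 10 bases after the start, chr8:111033840-111033869, plus strand: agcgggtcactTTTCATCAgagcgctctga
Gars, 30 bases before the start, chr6:55037960-55037989, plus strand: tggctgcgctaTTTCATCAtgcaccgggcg
Tars, 15 bases before the start, chr15:11399655-11399684, minus strand: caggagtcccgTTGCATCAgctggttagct
Yars, 4 bases after the start, chr4:129189895-129189924, plus strand: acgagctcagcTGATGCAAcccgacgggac
Iars, 8 bases after the start, chr13:49682126-49682155, plus strand: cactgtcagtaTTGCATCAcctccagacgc

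With rapamycin, 5 of the 34 synthetases tested fell and none rose, and all 5 belong to the cytosolic set. The genes were Nars, Sars, Gars, Yars and Tars, which charge asparagine, serine, glycine, tyrosine and threonine. Calls come from limma at a Benjamini-Hochberg adjusted p under 0.05 over all 13278 genes tested. Among all of those genes 1.79% were called lower and 2.65% higher.

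The largest fall with a call was that of Nars, which read 6.71, 6.52 and 6.52 log2 with rapamycin in spleens 1 to 3, against 7.44, 7.14 and 7.31 with DMSO. All 3 rapamycin arrays lay below all 3 DMSO arrays. The mean was 6.58 ± 0.11 with rapamycin and 7.30 ± 0.15 with DMSO (SD, n = 3 each), a log2 fold change of -0.71 (SE 0.11, limma adjusted p = 0.0105), or 0.609 times the DMSO level. A second Nars probe set above background gave -0.64. Sars read 6.15, 5.92 and 5.99 log2 with rapamycin, against 6.77, 6.53 and 6.60 with DMSO. Its groups did not overlap either, and the log2 fold change was -0.61 (SE 0.10, limma adjusted p = 0.0128). The second Sars probe set gave -0.59.

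Gars is also the gene of the mitochondrial glycine enzyme. It read 7.36, 7.27 and 7.14 log2 with rapamycin, against 7.74, 7.66 and 7.81 with DMSO (log2 fold change -0.48, SE 0.08, limma adjusted p = 0.0156). Yars read 3.97, 3.89 and 3.73 log2 with rapamycin, against 4.36, 4.33 and 4.27 with DMSO. Its log2 fold change was -0.46 (SE 0.09, limma adjusted p = 0.0205). In both genes every rapamycin array was below every DMSO array. Tars, the threonine enzyme, read 6.60, 6.41 and 6.46 log2 with rapamycin, against 6.93, 6.81 and 6.87 with DMSO, without overlap. Its log2 fold change of -0.38 (SE 0.09) came nearest to the threshold, at a limma adjusted p of 0.0458.

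**Figure D1:**
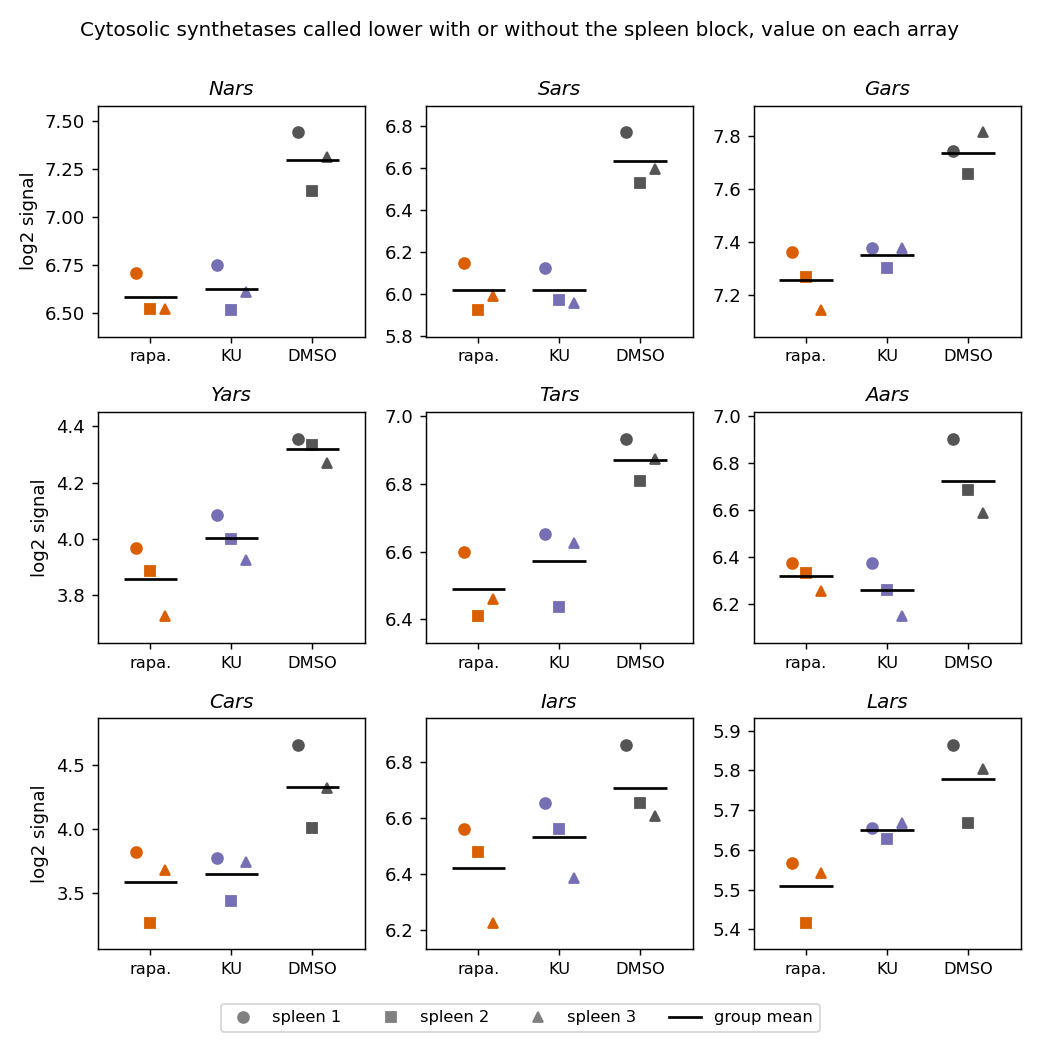
Log2 signal on each of the 9 arrays (vertical axis, its range set per gene) for the 9 cytosolic synthetases called lower against DMSO with or without a term for the spleen. Marker shape gives the spleen and the line the group mean; for Nars the rapamycin arrays read 6.52 to 6.71 and the DMSO arrays 7.14 to 7.44.

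With the spleen as a block, which uses the pairing of the arrays, limma called 9 synthetases lower with rapamycin and again none higher, all 9 cytosolic. This fit called 5.52% of all genes tested lower and 6.24% higher. The 4 members added were Cars, Aars, Iars and Lars, which charge cysteine, alanine, isoleucine and leucine. Cars had the lowest estimate of any synthetase, at 3.82, 3.27 and 3.68 log2 with rapamycin against 4.66, 4.01 and 4.32 with DMSO. Spleen 2 gave the lowest Cars reading in both groups. Its log2 fold change was -0.74 (SE 0.19), with a limma adjusted p of 0.0624 without the block and 0.00301 with it. The log2 fold change of Aars was -0.40, and its adjusted p was 0.0576 without the block and 0.0109 with it. Iars stood at -0.29 (adjusted p = 0.235 without the block and 0.0358 with it), and its second probe set above background at -0.49. Lars stood at -0.27 (adjusted p = 0.106 without the block and 0.0390 with it).

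The count of 5 without the block fell to 2 when DMSO replicate 1 or rapamycin replicate 3 was left out, and to 3 without rapamycin replicate 2. Nars kept its call in all 18 alternatives of the analysis and Tars in 7 of them. Counted by arrays alone, 16 of the 34 members had all 3 rapamycin arrays below all 3 DMSO arrays and 2 had them all above, against 9.69% and 9.38% of all genes tested. For tested genes with a mean above background the shares were 12.7% and 14.0%. The 16 comprised 13 cytosolic and 3 mitochondrial members.

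With KU-0063794, 4 of the 34 synthetases fell and none rose, and all 4 were cytosolic. Nars, Sars and Gars were called again, and Aars, the alanine enzyme, joined them. In this contrast 1.78% of all genes tested were called lower and 2.28% higher. The DMSO arrays are the same ones as in the rapamycin contrast, so the 2 sets of calls are not independent of each other.

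Nars read 6.75, 6.51 and 6.61 log2 with KU-0063794 in spleens 1 to 3, against the DMSO values given above, and its log2 fold change was -0.67 (SE 0.11, limma adjusted p = 0.0137). Sars read 6.13, 5.97 and 5.96 log2 with KU-0063794, a log2 fold change of -0.61 against DMSO (SE 0.10, limma adjusted p = 0.0137). No KU-0063794 array of either gene reached the lowest DMSO array. Their second probe sets gave -0.59 for Nars and -0.56 for Sars. Gars read 7.38, 7.30 and 7.38 log2 with KU-0063794, and its log2 fold change was -0.39 (SE 0.08, limma adjusted p = 0.0350). Aars read 6.37, 6.26 and 6.15 log2 with KU-0063794, against 6.90, 6.68 and 6.58 with DMSO, and its log2 fold change was -0.46 (SE 0.10, limma adjusted p = 0.0364). Neither gene's KU-0063794 arrays overlapped its DMSO arrays, and a second Aars probe set gave -0.52.

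With the spleen block 7 synthetases were called lower with KU-0063794, none higher, and all were cytosolic, where 5.86% of all genes tested were called lower and 6.52% higher. Cars, Yars and Tars were added. Cars read 3.77, 3.43 and 3.74 log2 with KU-0063794, and its log2 fold change was -0.68 (limma adjusted p = 0.0880 without the block and 0.00329 with it). Yars stood at -0.32 (0.0823 without the block and 0.0206 with it) and Tars at -0.30 (0.105 without the block and 0.0260 with it), both limma adjusted p. Without the block the count of 4 fell to 0 when DMSO replicate 1, KU-0063794 replicate 2 or KU-0063794 replicate 3 was left out. It was 2 without KU-0063794 replicate 1 or rapamycin replicate 2. By arrays alone, 9 members lay wholly below DMSO, all cytosolic, and 3 wholly above, against 9.29% and 11% of all genes tested. For tested genes with a mean above background the shares were 13.3% and 16.0%.

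**Figure D2:**
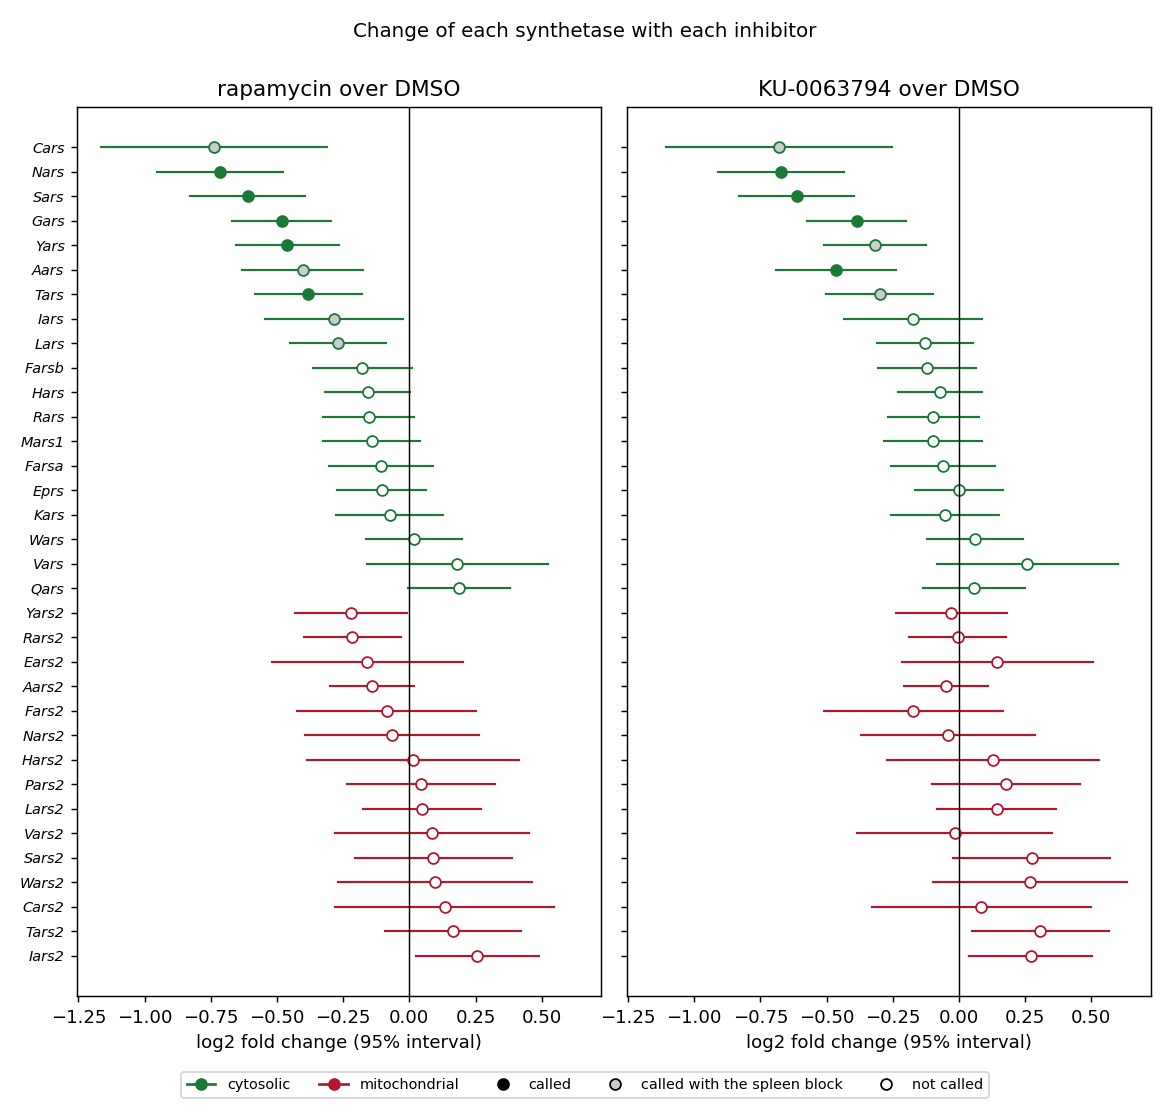
Log2 fold change of each of the 34 synthetases tested (horizontal axis) over DMSO, with rapamycin on the left and KU-0063794 on the right; bars are 95% intervals from limma without the block. Called members lie in the cytosolic set, from Nars at -0.71 to Tars at -0.38 with rapamycin, while the mitochondrial set spreads on both sides of 0.

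No synthetase was called different between the inhibitors. Between KU-0063794 and rapamycin, limma called 0 of the 34 members and 0% of all genes tested in either direction, with member adjusted p of 0.933 to 1. At an unadjusted p under 0.05 there was 1 member, Rars2, against 4.74% of all genes tested. Rars2 read 4.60, 4.60 and 4.70 log2 with KU-0063794, against 4.53, 4.41 and 4.33 with rapamycin. Its log2 difference was 0.21 (95% interval 0.03 to 0.39 without the block). The estimate, KU-0063794 minus rapamycin, was positive in 28 of the 34 members and negative in 6, while 46.1% of all genes tested were negative. By arrays alone, 5 members lay wholly above rapamycin and 0 wholly below, against 4.87% and 3.30% of all genes tested. Whether the members lean as a set was not tested.

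For the members called against DMSO, the 95% intervals are from limma without the block, which does not use the pairing. They show how large a difference between the inhibitors could have been missed in that fit. Standard errors were smaller with the block, at 0.067 against 0.106 for Nars and 0.079 against 0.083 for Gars. The log2 difference, KU-0063794 minus rapamycin, was 0.04 for Nars (-0.20 to 0.28), -0.002 for Sars (-0.22 to 0.22) and 0.10 for Gars (-0.09 to 0.28). It was 0.14 for Yars (-0.05 to 0.34), 0.08 for Tars (-0.12 to 0.28) and -0.06 for Aars (-0.29 to 0.17). Yars and Tars passed without the block only with rapamycin, and Aars only with KU-0063794, but none of the 3 was called different between the inhibitors. The doses were 20 nM and 1 uM, so the compounds were not compared at a matched dose.

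Across the whole cytosolic set, the log2 fold change was negative in 16 of 19 genes with rapamycin (median -0.18) and in 15 of 19 with KU-0063794 (median -0.12). The median of all genes tested was -0.004 with rapamycin and 0.01 with KU-0063794. The cytosolic genes with positive estimates with rapamycin were Wars, Vars and Qars, the tryptophan, valine and glutamine enzymes, at 0.02, 0.18 and 0.19. None of the 3 was called. The 3 Qars probe sets above background disagreed in sign with rapamycin, between -0.01 and 0.19.

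The analysed synthetases of the multisynthetase complex, without Dars, were Eprs, Iars, Kars, Lars, Mars1, Qars and Rars. They contributed no call without the block in either contrast. On the probe sets used, their log2 fold changes ran from -0.29 to 0.19 with rapamycin (median -0.14). With KU-0063794 they ran from -0.17 to 0.06 (median -0.10). A second Iars probe set above background gave -0.49 with rapamycin and -0.36 with KU-0063794. Other Eprs probe sets above background gave -0.23 and -0.26 with KU-0063794, and those of Qars -0.07 and -0.04. The block added Iars and Lars with rapamycin and no gene of the complex with KU-0063794. Of the 12 cytosolic genes outside the complex, 5 were called with rapamycin (median -0.39) and 4 with KU-0063794 (median -0.31), and 7 in each with the block. The shares called lower among all genes tested were 1.79% and 1.78% without the block and 5.52% and 5.86% with it. The lowest and highest adjusted p inside the complex were 0.106 and 0.743 with rapamycin. Whether genes inside and outside the complex differ in response was not tested.

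**Figure D3:**
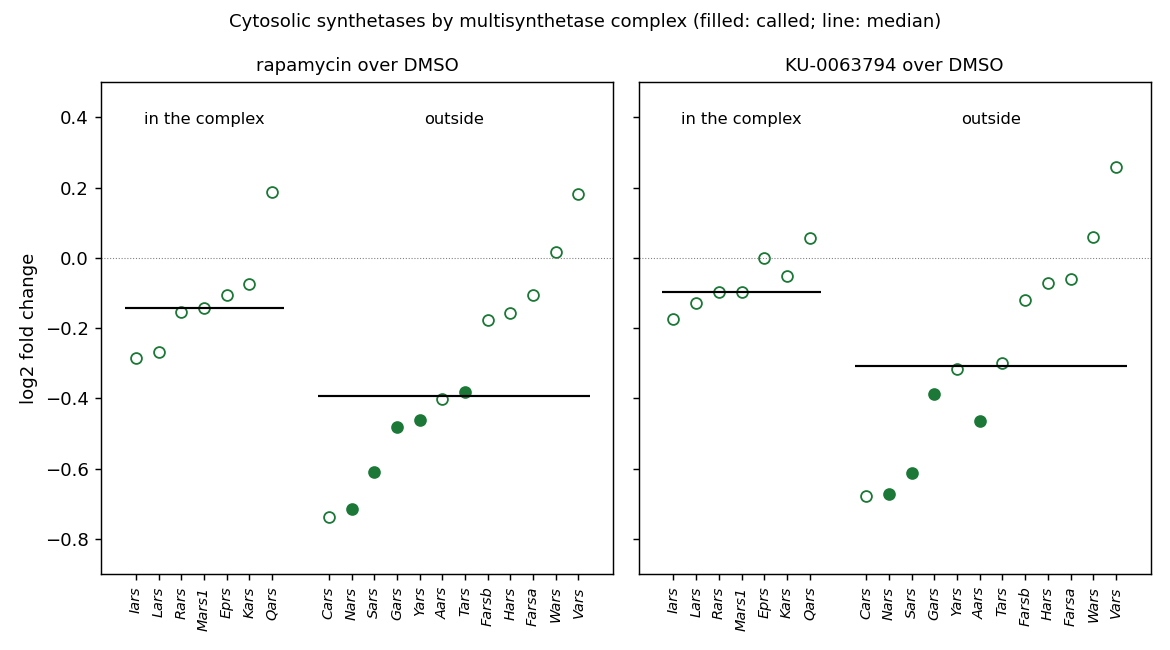
Log2 fold change over DMSO (vertical axis) of the 19 cytosolic synthetases, grouped by membership of the multisynthetase complex; filled points were called by limma without the block and lines are medians. With rapamycin the median is -0.14 in the complex and -0.39 outside it, and no filled point lies in the complex.

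By catalytic class, class II (Aars, Farsa, Farsb, Gars, Hars, Kars, Nars, Sars and Tars) held 4 of the 5 rapamycin calls and all 4 KU-0063794 calls. Among all genes tested 1.79% and 1.78% were called lower. The 9 class II genes had negative estimates in both contrasts, with medians of -0.38 and -0.30. The 9 class I genes had 1 call with rapamycin, Yars, and 0 with KU-0063794 (limma, with 2 of the 9 at an unadjusted p under 0.05), and their medians were -0.15 and -0.10. The block added Cars, Iars and Lars to the class I calls with rapamycin, and Cars and Yars with KU-0063794. Among the genes analysed, which leave out Dars, Iars, Lars, Mars1, Qars and Rars of class I are in the complex. Of the class II genes analysed only Kars is. Class and complex membership therefore overlap as groupings and cannot be told apart here. Whether the classes differ in response was not tested. Eprs, whose protein joins a glutamate enzyme of class I to a proline enzyme of class II, stood at -0.10 with rapamycin and 0.00 with KU-0063794. Its 3 probe sets above background spanned -0.22 to -0.10 with rapamycin and -0.26 to 0.00 with KU-0063794.

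No mitochondrial synthetase was called in either contrast, with or without the block. At an unadjusted p under 0.05 limma gave 3 of the 15 tested with rapamycin and 2 with KU-0063794, against 17.9% and 18.5% of all genes tested, so these counts do not stand out from the background. The lowest adjusted p was 0.201 and 0.188. The median log2 fold change was 0.05 with rapamycin and 0.13 with KU-0063794, and 6 of 15 estimates were negative in each. These medians were -0.0007 and 0.03 when all probe sets of a gene were averaged, and 0.03 and 0.04 over the genes above background. Standard errors were as small as 0.07 and as large as 0.18, against 0.07 to 0.19 in the cytosolic set. The median of the mean signals was 2.34 log2 in the mitochondrial set and 6.43 in the cytosolic set. Means above 5 log2 numbered 0 of 16 and 14 of 19. Like standard errors at such unlike signals need not mean that an equal fall would show equally, which was not tested.

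Individual mitochondrial genes leaned in different directions. By arrays alone, 3 of the 15 lay wholly below DMSO with rapamycin and 1 wholly above, against 9.69% and 9.38% of all genes tested. With KU-0063794 0 lay wholly below and 2 wholly above, against 9.29% and 11%. Iars2, the isoleucine enzyme, read 4.27, 4.25 and 4.17 log2 with rapamycin and 4.18, 4.47 and 4.08 with KU-0063794, against 3.98, 3.93 and 4.01 with DMSO. All 6 inhibitor arrays lay above the 3 DMSO arrays, with log2 fold changes of 0.26 and 0.27 (limma adjusted p = 0.226 and 0.196). Tars2, the threonine enzyme, read 3.14, 3.43 and 3.47 log2 with rapamycin and 3.60, 3.39 and 3.47 with KU-0063794, against 3.04, 3.33 and 3.18 with DMSO. The rapamycin arrays overlapped the DMSO arrays and the KU-0063794 arrays did not, and neither log2 fold change, 0.17 and 0.31, was called (limma adjusted p = 0.517 and 0.188). Yars2, the tyrosine enzyme, read 3.13, 3.27 and 3.02 log2 with rapamycin, against 3.29, 3.48 and 3.32 with DMSO. Every rapamycin array was lower, and the log2 fold change of -0.22 had a limma adjusted p of 0.257 without the block and 0.0747 with it. Rars2 and Aars2 also had every rapamycin array below every DMSO array, at -0.21 and -0.14 (limma adjusted p = 0.201 and 0.341).

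Pairs of the cytosolic and the mitochondrial enzyme of the same amino acid were formed for 15 pairings, with Farsa and Farsb, subunits of one enzyme, both set against Fars2, and Eprs against Ears2. Eprs was not also paired with Pars2, the mitochondrial proline enzyme, whose log2 fold change was 0.05 with rapamycin and 0.18 with KU-0063794. The cytosolic gene had the lower log2 fold change in 12 of the 15 pairs with rapamycin and in 12 with KU-0063794. Within a spleen, the cytosolic gene was the lower of the pair in all 3 spleens in 8 pairs with rapamycin and 9 with KU-0063794, and in none was it the higher in all 3. The median of the pair differences, cytosolic minus mitochondrial, was -0.24 with rapamycin and -0.27 with KU-0063794. The pairs with Ears2, Sars2 and Wars2, which were mostly at background, are among those counted.

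Cars and Cars2 stood furthest apart with rapamycin, by -0.87 on the log2 scale. The mitochondrial partners of the other called genes gave log2 fold changes of -0.06 for Nars2, 0.09 for Sars2, -0.14 for Aars2, 0.17 for Tars2 and -0.22 for Yars2 with rapamycin, none called. With KU-0063794 they gave -0.04 for Nars2, 0.27 for Sars2, -0.05 for Aars2, 0.31 for Tars2 and -0.03 for Yars2, again none called. Gars has no separate partner. Sars2 was above background on 1 array only.

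**Figure D4:**
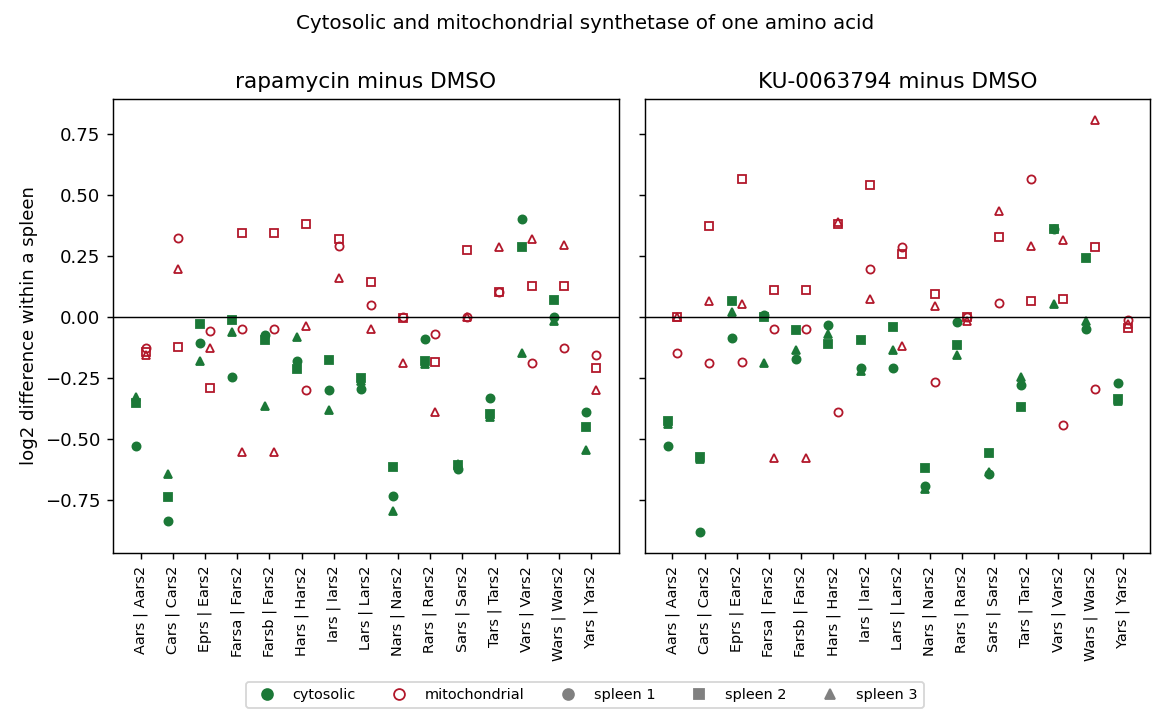
Log2 difference from DMSO within each spleen (vertical axis) for the 15 pairs of cytosolic (filled) and mitochondrial (open) synthetases, with rapamycin on the left and KU-0063794 on the right. Marker shape gives the spleen; in the Nars and Nars2 pair all 3 filled points lie below all 3 open points.

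Of the 5 members called against DMSO without the block and found among the promoter windows, 4 hold the letters TTNCATCA on either strand (Aars, Gars, Tars and Yars), and Sars does not in this window. The letters occurred in 5 of the 13 cytosolic genes with a window and in 4.51% of all genes with one. Nars was also called but had no window. A link between the letters and the response was not tested. Iars, the other holder, was called only with the block and only with rapamycin. The palindrome CACGTG, a sequence read by basic helix-loop-helix factors, occurred in a window of 4 cytosolic genes (Aars, Farsb, Iars and Tars) and 1 mitochondrial gene (Ears2), against 8.09% of all genes with a window.

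A list of 25 genes tested, Atf4 and its known targets other than synthetases, was chosen with earlier results of these data known. Of these, 13 fell with rapamycin and 13 with KU-0063794, none rose in either, and 12 were not called in each. Among all genes tested 1.79% and 1.78% were called lower. With the block 21 and 22 fell, against 5.52% and 5.86% of all genes tested. The median log2 fold change of the list was -0.55 in both contrasts, and all 25 estimates were negative in each. Whether the falls of this list and of the synthetases are linked was not tested. Asns, which makes asparagine, averaged 6.02 ± 0.15 log2 with rapamycin and 6.21 ± 0.15 with KU-0063794, against 7.23 ± 0.17 with DMSO (SD, n = 3 each; limma adjusted p = 0.00440 and 0.00693). Psph, which makes serine, had log2 fold changes of -1.23 and -0.99, Trib3, a pseudokinase, -1.20 and -1.20, and Stc2, a secreted glycoprotein, -0.55 and -0.76 with rapamycin and KU-0063794. Atf4 itself, singled out after its values were seen, stood at -0.70 and -0.55 (limma adjusted p = 0.0122 and 0.0259).

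The other genes of tRNA charging and maturation gave counts that do not stand out from those of all genes tested. Among 15 genes tested on a list of synthetase partners and related genes, limma called 0 with rapamycin. At an unadjusted p under 0.05 there were 3, beside 17.9% of all genes tested. The list held Tarsl2, a Tars-like gene outside the 36 members, which was not called in either contrast. With KU-0063794 the 1 call was Prorsd1, at -0.52 (limma adjusted p = 0.0467), where 1.78% of all genes tested were called lower and 2.28% higher. Its probe set averaged 1.66 log2 with KU-0063794 and 2.18 with DMSO, near background. The block called Prorsd1 and Eef1e1 lower with rapamycin, and Prorsd1 lower and Dtd1 higher with KU-0063794, 2 of 15 in each contrast. That fit called 5.52% of all genes tested lower and 6.24% higher with rapamycin, and 5.86% and 6.52% with KU-0063794. Of the scaffold genes, Aimp1 and Aimp2 had log2 fold changes of 0.04 and 0.005 with rapamycin and 0.04 and 0.08 with KU-0063794. Eef1e1, also a scaffold gene, stood at -0.33 with rapamycin (limma adjusted p = 0.19 without the block and 0.0180 with it). With KU-0063794 Eef1e1 stood at -0.17 (limma adjusted p = 0.522 without the block and 0.144 with it). Of 34 genes of tRNA processing, modification and export, limma called 0 in both contrasts, with 4 at an unadjusted p under 0.05 with rapamycin and 7 with KU-0063794, beside 17.9% and 18.5% of all genes tested. The block called Dus1l and Xpot lower with rapamycin and Pus7 higher with KU-0063794. The median log2 fold change of that list was 0.01 with rapamycin and 0.08 with KU-0063794.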

How the data were processed

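Each array had 1 deposited column of log2 values for its probe sets, which the authors made with Affymetrix Expression Console 1.3.1, per the submitters' processing notes. How background was corrected, how probes were summarised and normalized, and which genome build was used is not given in the sources used here. Hybridisation controls rose by 1.04 log2 per doubling of their nominal concentration. Values were used as deposited.

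Of 45101 probe sets, 64 were controls, 34945 carried 1 gene symbol, 932 several and 9160 none in the annotation. Each gene took its probe set with the highest mean over the 9 arrays, and 13278 genes with a mean above the 40th percentile (0.31 log2) were tested. limma 3.58.1 (R 4.3.3, lmFit and eBayes, two-sided, 3 groups in 1 fit) gave fold changes and Benjamini-Hochberg adjusted p over all genes tested, with a threshold of 0.05. The fit carried no spleen term, and the fit with the spleen as a block stands beside it. Same-numbered arrays come from 1 spleen, as the labels' protocols state, and their deviations from the group means correlated at 0.345 to 0.533 in all 9 pairings, against -0.414 to -0.0791 in the 18 others. On simulated data for 13278 genes and 3 arrays per group, 87 of 100 genes changed by 1 log2 and 97 of 100 changed by 2 were recovered, with 7 false calls. Changes smaller than 1 log2, where every synthetase estimate lies, were not simulated. The simulated arrays varied independently, without a shared spleen effect. Alternatives were quantile normalization, median centring, other filters and probe sets, trend and robust eBayes, only the groups compared, and each array left out.

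The members, the gene lists, the motifs and the grouping by complex and class were chosen with earlier results of these data known. Synthetases called are named with every array, those called only with the block with both adjusted p, with the paralogues of called genes, and the lists by count, median and up to 4 called genes. One promoter stretch is not reported here.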

Additional observations from a re-analysis of the deposited data

How the results depend on the processing

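The counts of synthetases called depended on the fit. With the replicate block for the spleen they were 9 with rapamycin and 7 with KU-0063794, against 5 and 4 without it, and with only the arrays of the groups compared they were 1 and 1. Over all genes tested, 590 and 540 calls became 1561 and 1644 with the block and 98 and 111 with only the arrays of the groups compared. The block changed no call between KU-0063794 and rapamycin. Leaving out 1 array at a time gave 2 to 5 with rapamycin, 0 to 4 with KU-0063794 and 0 between the inhibitors. Over the same 9 fits the cytosolic median log2 fold change ran from -0.23 to -0.18 with rapamycin and from -0.15 to -0.10 with KU-0063794, and the mitochondrial median from -0.02 to 0.05 and from 0.05 to 0.14. Over the other 9 alternatives the cytosolic median ran from -0.18 to -0.16 and from -0.13 to -0.12, and the mitochondrial median from -0.0007 to 0.05 and from 0.03 to 0.14, lowest with all probe sets of a gene averaged. Nars with rapamycin passed in all 18 alternatives (limma adjusted p up to 0.0489) and Sars in 17, failing with only the groups compared (0.0535). Gars passed in 15, Yars in 14 and Tars in 7. With KU-0063794 Sars passed in 15, Nars in 14, Gars in 11 and Aars in 8. The cause of these losses was not tested. The 3 arrays per group limit the precision, and Ears2, Sars2 and Wars2 were mostly at background.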
